A study of Mus musculus with 4 samples.

Results

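The effect of losing Msx1 on the mesenchyme of the upper (maxillary) molar germ was read from a pair of mouse RNA-seq libraries, 1 from Msx1+/- embryos (control) and 1 from Msx1-/- embryos (mutant). These are 2 of the 4 libraries of the series, the others being the control and mutant lower (mandibular) molars. The comparison takes every gene name whose FPKM (fragments per kilobase of transcript, scaled to the mapped fragments) averaged at least 1 over the upper libraries and had no failed estimate in either. It kept 10689 of 22072 gene names, and 33 names were left out for a failed estimate. Tissue was cut by laser capture from frozen heads at embryonic day 14, and material from 3 control and mutant pairs went into the pooled RNA. The mice were of a mixed background, the Msx1 allele is not named in the labels, and the controls carry 1 Msx1 copy, although the series title speaks of wild type. Whether upper and lower germs came from the same embryos is not stated.

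Msx1 encodes a homeodomain transcription factor made in the dental mesenchyme, the neural crest-derived tissue that condenses under the tooth epithelium and later forms pulp and dentin. In the textbook scheme Msx1 acts downstream of epithelial Bmp and Fgf signals and is needed for the mesenchyme to send Bmp4, Fgf3 and other signals back to the epithelium. Mouse molars that lack Msx1 stop at the bud stage.

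In the upper molars 367 genes (3.43% of those compared) were lower in the mutant by at least 1 on the log2(FPKM + 1) scale and 135 genes (1.26%) were higher, together 4.7%. Differences of at least 2 in size were found for 82 lower (0.767%) and 30 higher genes (0.281%). A gene at or past a difference of 1 in size is called lower or higher here, and "difference" always means mutant minus control on this scale, which understates changes of weakly expressed genes. The lower set included the Egr transcription factors, Mmp9, Enpp1, the activin subunit Inhba, Lef1, Fgf3 and the Fgf-induced Etv and Spry genes, Dlx2, Runx2 and Notch targets. The higher set included Col8a1, Col12a1 and Lox of the collagen matrix, Sfrp2 and Dkk2, Meis2, Osr1, Shox2 and Tbx15, and a group of neural adhesion genes led by Lrrtm1 and Ncam2. With 1 library a side there is no replicate check, so no p-value belongs to any of these differences, and p-values across genes are not given. Rescaling both libraries to a common upper quartile shifted the split to 303 lower and 178 higher.

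The compared genes centred near 0, with a median difference of -0.03 and quartiles at -0.27 and 0.17, and 82.4% lay within 0.5 of 0. Lower calls were 2.34% of genes with a mean of 1 to 5 FPKM, 4.14% at 5 to 20 FPKM and 4.66% at 20 to 100 FPKM, against 1.12%, 1.13% and 0.986% for higher calls in the same classes. Of the 232 genes at 100 FPKM or more, 4 were called lower and 1 higher. Transcripts were covered by 410 Mb of sequence in the control and 395 Mb in the mutant upper library, against 324 Mb and 264 Mb in the lower molar libraries, so the upper pair was the deeper and the better matched. Small RNA names were an exception to the quiet background, since 39 of the 92 compared (42.4%) were called, 19 higher and 20 lower, and none is described further.

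**Figure D1:**
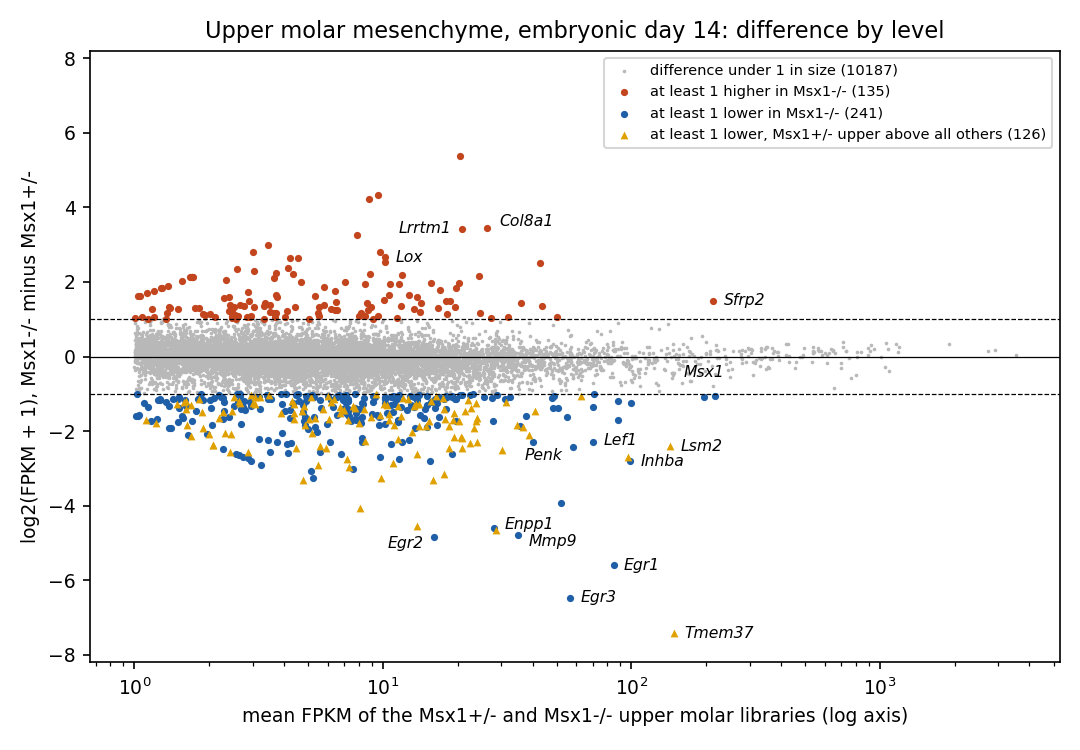
Each point is 1 of the 10689 genes compared in upper molars, placed by its mean FPKM (log axis) and its mutant minus control difference of log2(FPKM + 1), with dashed lines at 1 and -1. The 367 lower and 135 higher genes are coloured, triangles mark the 126 lower genes for which the control upper library lay at least 1 above every other library, and the unlabelled points above Col8a1 are small RNA names.

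The control upper library stood apart from the rest in part of the table, and this bears on the lower calls. For 126 genes (1.18% of those compared, 34.3% of the 367 lower calls) it lay at least 1 above each of the 3 other libraries, the control lower molar included. The same count was 3 genes (0.0281%) for the control lower, 22 (0.206%) for the mutant upper and 14 (0.131%) for the mutant lower library. Of the 126 genes, 12 were also called lower in the lower molars, a count that the low control lower value required of them holds down. Tmem37, which encodes a transmembrane protein and had the largest difference of the whole comparison (-7.42), belonged to the 126, with 296 FPKM in control upper, 0.738 in mutant upper, 7.86 in control lower and 0.569 in mutant lower. Lsm2, an RNA-processing factor found in every cell, read 242, 44.7, 58.4 and 36.5 FPKM in the same order, and Cytip, a regulator of adhesion in blood cells, 16.1, 0.0336, 0.0280 and 0.0440. Each such gene is named below as high in control upper alone. The label does not say that control lower was level with the mutants. For Tmem37 and Dlx3 control lower lay at least 1 above both of them. When the mutant upper library was set against the control lower library instead, a comparison that mixes jaw with genotype and was chosen after seeing the data, 225 genes (2.1%) were lower and 158 (1.48%) higher. The mutant upper library lay at least 1 below both controls for 150 genes (1.4%) and above both for 95 (0.889%). Of the genes named in the text that were not high in control upper alone, these lost their call against control lower: Flrt3, Rspo1, Sfrp1, Dkk2, Smoc2, Rarb, Vegfa, Igfbp2, Runx2, Osr1, Sox8, Npnt, Hapln1, Timp3, Cdh12, Ntrk3, Itga6, E2f1, Krt5, Krt15, Egfl7, Mylk, Itm2a, LOC624853, Atp5g2, Etv1, Fosl2, Gdf7 and Rangrf. Akr1b3, called lower in upper molars, was higher against control lower (1.97).

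Msx1 itself read 170 FPKM in control upper, 126 in mutant upper, 184 in control lower and 85.9 in mutant lower (mm9, chr5:38211730-38215824). Its upper difference of -0.43 was not called, and transcript sequence of the gene was still abundant in both mutants. With an unnamed allele and 1 value for the whole gene, this level does not check the labels. Other dental mesenchyme genes, which define the labelled tissue, were abundant in both upper libraries. Of 18 such genes 17 were compared, among them Barx1 (104 FPKM in control upper and 86.4 in mutant upper), Pax9 (45.7 and 68.1), Lhx6 (81.3 and 62.7) and Lhx8 (48.5 and 54.9). Of these 17 genes 4 were called lower (Inhba, Dlx2, Prrx2 and Runx2) and 0 higher, with a median of -0.26. Every list count that follows is to be read against the 3.43% of all genes called lower and the 1.26% called higher, and every list median against -0.03. Because the tissue is bulk, fewer cells of a type and less RNA per cell cannot be told apart in any value that follows.

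Markers of other cell types were read across the same libraries. Epithelial markers summed to 37.3 FPKM in control upper and 64.2 in mutant upper (59.9 and 87.6 in the lower pair), with Krt5 and Krt15 called higher of 8 compared, although Cdh1 stood at 0.0426 and 0.0739 FPKM and Epcam at 0.423 and 0.914. Endothelial markers summed to 110 and 84.2 FPKM, with 1 of 19 called (Egfl7, lower), and erythroid markers to 923 and 633 FPKM, with 1 of 9 called (Hbb-b2, lower). Macrophage markers summed to 44.3 and 54.1 FPKM with 0 of 12 called. Neuronal and glial markers summed to 16.2 and 24.3 FPKM, of which Gap43 made up 9.0 and 18.5, and 17 of 19 were below 1 FPKM in both upper libraries. Cartilage markers summed to 7.37 FPKM in control upper and 17.4 in mutant upper (6.59 and 22.6 in the lower pair), with a median of 0.85 over the 4 compared, 1 of them called (Hapln1, higher), while Acan stood at 0.00564 and 0.0386 FPKM and Matn1 was listed at 0 in both upper libraries. Skeletal muscle markers summed to 6.05 and 6.07 FPKM. Of the compared markers, 7 of 8 epithelial, 4 of 4 cartilage and 10 of 12 macrophage markers had a difference above 0. Below 0 lay 15 of 19 endothelial and 9 of 9 erythroid markers. The part of these shifts in the differences below was not tested, and a marker at or near 0 does not test it.

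The immediate-early genes, which cells switch on within minutes of growth factor signals or stress, held the largest lower differences outside genes that were high in control upper alone. Of 25 compared, 7 were called lower (against 3.43% of all genes) and 0 higher, with a median of -0.56 against -0.03 for all genes, and 21 lay below 0. Egr3 read 113 FPKM in control upper, 0.294 in mutant upper, 60.7 in control lower and 0.0967 in mutant lower, an upper difference of -6.46. Egr1 read 167, 2.47, 113 and 2.72 FPKM (-5.60), and Egr2 32.0, 0.156, 34.1 and 0.0260 FPKM (-4.83). All 3 encode zinc finger transcription factors of the same family, and for each of them both controls lay far above both mutants. Nab2, a corepressor that binds Egr proteins and is itself induced by them, went from 67.5 to 12.9 FPKM (-2.30), and Klf10, a zinc finger factor induced by Tgf-beta, from 17.6 to 1.86 FPKM (-2.70). Ier2 and Fosl2 were the other two called. Other members of the list were not: Jun had 5.0 and 3.80 FPKM, Myc 17.5 and 13.2 and Srf, the factor that drives many of these genes, 7.87 and 6.70. Arc, an activity-induced gene outside the list and chosen after its values were seen, went from 2.85 to 0.146 FPKM (-1.75).

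Promoters of genes called lower are shown for 3 examples from these results: Egr2 for the Egr family, Nab2 for its partner and Inhba for the most abundant signalling gene of the lower set. The letters are the 250 bases before the RefSeq transcription start on the gene's strand, 5′ to 3′, in build GRCm38.p6 (Egr2, chr10:67537316-67537565, plus strand, Nab2, chr10:127666704-127666953, minus strand, Inhba, chr13:16011601-16011850, plus strand). Capitals mark every match, on either strand, to the Msx core TAATTG, the Egr core GCGTGGG, the Tcf and Lef core CTTTGA or the CArG box that Srf binds. Where a gene had several RefSeq promoters, the one with the most matches was shown, so that choice favours matches.
Egr2: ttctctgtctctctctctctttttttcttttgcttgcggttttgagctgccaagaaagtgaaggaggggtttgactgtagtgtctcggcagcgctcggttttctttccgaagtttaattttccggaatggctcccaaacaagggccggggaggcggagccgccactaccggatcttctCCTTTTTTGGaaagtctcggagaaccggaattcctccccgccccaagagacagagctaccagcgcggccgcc
Nab2: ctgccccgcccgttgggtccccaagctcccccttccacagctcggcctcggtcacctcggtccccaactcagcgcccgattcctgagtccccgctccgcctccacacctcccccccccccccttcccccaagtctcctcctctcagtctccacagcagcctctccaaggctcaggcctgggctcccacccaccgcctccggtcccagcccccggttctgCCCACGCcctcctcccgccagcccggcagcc
Inhba: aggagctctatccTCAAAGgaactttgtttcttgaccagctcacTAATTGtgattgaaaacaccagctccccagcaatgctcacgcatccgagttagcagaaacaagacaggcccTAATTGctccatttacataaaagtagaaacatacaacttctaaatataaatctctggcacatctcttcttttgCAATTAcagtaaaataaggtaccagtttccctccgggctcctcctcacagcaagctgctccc
The Egr2 stretch holds 1 CArG box 72 bases before the start. The Nab2 stretch holds 1 Egr core, 31 bases before the start. In the Inhba stretch there are 3 Msx cores, which begin 206, 135 and 62 bases before the start, and 1 Tcf and Lef core at 237 bases.

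The share of genes with each motif in any of their promoters was counted for called genes and for all compared genes. RefSeq promoters of 300 bases (250 before to 50 after the start) were matched for 7595 of the compared genes, 238 of them called lower and 84 higher. In all 9748 promoters were searched, so a gene with several promoters could match more easily. The Msx core was found for 5.88% of the lower, 8.33% of the higher and 5.56% of all these genes. The Egr core was found for 11.8%, 11.9% and 10.2%, the Tcf and Lef core for 14.7%, 21.4% and 13.5%, and the CArG box for 1.68%, 1.19% and 1.57%. The 21.4% for the Tcf and Lef core is 18 of 84 genes and the 8.33% for the Msx core 7 of 84. A match is a run of letters and not a bound site.

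Fgf signalling carries messages between tooth epithelium and mesenchyme, and its feedback genes are common readouts of the pathway. Among Fgf ligands and receptors 1 of 10 compared was called. Fgf3, a ligand of the dental mesenchyme, read 6.44 FPKM in control upper, was listed at 0 in mutant upper, and read 8.66 and 0.0365 FPKM in the lower pair. Fgf10, its mesenchymal relative, went the other way without reaching the size of a call in upper molars (1.74 to 3.66 FPKM, 0.76), and the receptor Fgfr2 stayed at 8.69 and 8.78 FPKM. Among 16 feedback inhibitors and targets 6 were called lower and 2 higher, against 3.43% and 1.26% of all genes, with a median of -0.54 against -0.03. The Ets factors Etv4 (6.69 to 0.315 FPKM, -2.55) and Etv5 (21.6 to 3.82, -2.23) and the Sprouty inhibitors Spry4 (18.7 to 2.88, -2.34) and Spry1 (15.9 to 4.92, -1.51) were the largest, followed by the Erk phosphatase Dusp6 (24.9 to 11.3, -1.07) and by Etv1. The pair called higher, Flrt2 (6.33 to 21.1, 1.59) and Flrt3 (10.6 to 28.4, 1.34), are transmembrane proteins that bind Fgf receptors and guidance receptors. Flrt2 was as far apart in the lower molars (6.80 and 22.1 FPKM), while Flrt3 there read 16.5 and 23.2 FPKM.

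Wnt ligands bind Frizzled receptors and act through beta-catenin and the Tcf and Lef factors, and secreted antagonists hold them back. Lef1, a nuclear effector without which teeth stop at the bud stage, read 117 FPKM in control upper, 23.1 in mutant upper, 93.5 in control lower and 11.3 in mutant lower (-2.30). Ctnnb1, which encodes beta-catenin, read 131 and 119 FPKM in the upper pair, and Axin2, a general Wnt target, 17.0 and 18.1 FPKM. Of 14 Wnt targets 4 were called lower (Lgr6, Lef1, Sp5 and Dkk1) and 0 higher, with a median of -0.51. Sp5, a zinc finger factor, went from 3.79 to 0.131 FPKM (-2.08), whereas Lgr6, an R-spondin receptor, and Dkk1 were high in control upper alone. Lgr6 was nevertheless lower in the lower pair too (3.83 to 0.121 FPKM, -2.11) and in mutant upper against control lower (-1.19). Dkk1 read 0.557 and 0.416 FPKM in the lower pair. Ligands showed smaller differences: of 7 compared, Rspo1 (9.62 to 4.10, -1.06) and Wnt9a (2.82 to 0.896, -1.01) were called lower at the edge of the rule, and Wnt5a read 16.5 and 13.1 FPKM.

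Antagonists of Wnt split both ways, with 3 of 13 called higher and 3 lower. Sfrp2, a secreted Frizzled-like protein, was the most abundant gene called higher, with 111 FPKM in control upper, 316 in mutant upper, 124 in control lower and 359 in mutant lower (1.5). Its relative Sfrp1 went from 31.9 to 68.2 FPKM (1.07) and Dkk2 from 4.55 to 16.5 FPKM (1.66). Sfrp1 and Dkk2 already read 46.6 and 10.3 FPKM in the control lower library. Wif1, a secreted Wnt-binding protein, went from 7.21 to 2.59 FPKM (-1.19) and Shisa2, which retains Frizzled and Fgf receptors inside the cell, from 14.4 to 6.06 FPKM (-1.13).

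Bmp4, the mesenchymal ligand most tied to Msx1 in the literature of tooth development, read 25 FPKM in control upper, 17.6 in mutant upper, 34.7 in control lower and 20.2 in mutant lower, a difference of -0.48 that was not called. Of 9 Bmp and Gdf ligands, Bmp3, an antagonistic family member, was lower in both jaws (12.4 to 1.20 FPKM, -2.61, and 8.44 to 0.647 in lower molars). Gdf10, another divergent member, was higher (0.742 to 6.56 FPKM, 2.12), against 1.92 and 3.03 FPKM in the lower pair. Among 25 receptors, antagonists and response genes 0 were lower and 2 higher. These were Id4 (2.75 to 8.35 FPKM, 1.32), an inhibitor of helix-loop-helix factors, and Smoc2 (17.5 to 37.0, 1.04), a secreted matrix protein. Id3, a common Bmp response gene, read 115 and 66.9 FPKM (-0.77).

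Activin is built from the Inhba product and is an early mesenchymal signal of mouse molars. Inhba was the most abundant signalling gene among the lower calls, with 174 FPKM in control upper, 23.9 in mutant upper, 138 in control lower and 28.5 in mutant lower (-2.81). Of 19 activin and Tgf-beta genes, Tgfb1 (12.4 to 3.17 FPKM, -1.69), a ligand, and Skil (14.6 to 4.29, -1.56), a Smad corepressor induced by the pathway, were the other two called, both lower. For all 3 genes both controls lay above both mutants.

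Of 16 Notch genes 4 were called lower and 0 higher, against 3.43% and 1.26% of all genes, so that 0 higher is near the background. The lower calls were the receptor Notch1 (8.57 to 2.70 FPKM, -1.37) and the target repressors Hey1 (26.4 to 6.64, -1.84), Hes1 (14.7 to 5.61, -1.25) and Heyl (2.62 to 0.394, -1.38), while Notch2 read 9.53 and 11.6 FPKM. Among retinoic acid genes Crabp2, which binds retinoic acid inside the cell (35.0 to 16.1, -1.07), and the receptor Rarb (4.93 to 1.92, -1.02) were lower. Hedgehog reception showed 0 of 11 called, with Ptch1, the receptor and a direct target of the pathway, at 18.4 and 20.9 FPKM in the upper pair. In the lower pair Ptch1 read 15.4 and 6.66 FPKM. Of 11 genes of the ectodysplasin and Tnf family, Tnfrsf12a, the Tweak receptor, was lower (7.82 to 0.463, -2.59) and Tnfrsf11b, the decoy receptor osteoprotegerin, was higher (0.317 to 1.69, 1.03).

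Among growth factor systems Igfbp7 (18.2 to 4.72 FPKM, -1.75) and Igfbp3 (43.2 to 18.9, -1.15), which bind insulin-like growth factors or related ligands, were lower. Vegfa (11.9 to 4.93, -1.12) and the receptor Pdgfrb (37.9 to 16.9, -1.12) were the other two lower calls of the 23 compared. Igfbp2 was higher (11 to 25.3, 1.13). Mdk, a heparin-binding growth factor of embryonic mesenchyme, read 328 and 323 FPKM.

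**Figure D2:**
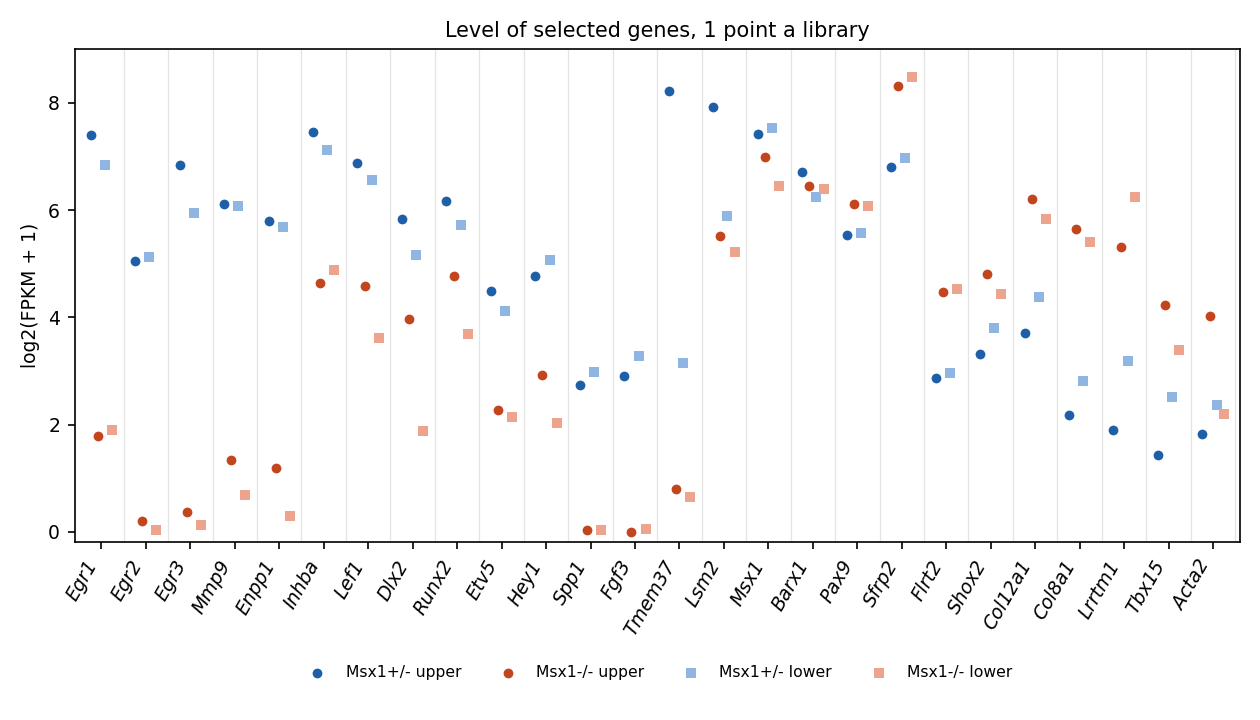
Levels of 26 genes on the log2(FPKM + 1) scale, with 1 point for each of the 4 libraries (circles upper molars, squares lower molars, blue control, red mutant). For Egr1 through Fgf3 both controls lie above both mutants. Control upper lies at least 1 above each other library for Tmem37 and Lsm2, and mutant upper does so for Acta2. Control lower lies between control upper and both mutants for Tmem37 and Lsm2.

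Transcription factors of the dental field did not move as a block. Of 23 dental mesenchyme factors 3 were lower and 2 higher, with a median of 0.07. Runx2, needed for bone and for teeth to pass the bud stage, went from 70.7 to 26.4 FPKM (-1.39). Prrx2, a paired homeobox gene, went from 83.9 to 26.6 FPKM (-1.62) and Twist2 from 10.4 to 3.34 (-1.40), while their relatives Prrx1 (130 and 163) and Twist1 (37.3 and 43.6) were not called. Meis2, a TALE homeobox cofactor, was higher (1.27 to 8.08, 2.0), and so was Osr1, a zinc finger factor of early mesenchyme (4.70 to 13.3, 1.32), although Osr1 already read 12.2 FPKM in the control lower library. Osr2, its close relative, was equal in the upper pair at 58.9 and 58.9 FPKM.

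Dlx genes pattern the jaws, and Dlx1 and Dlx2 act together in upper molars. Of 7 Dlx and Msx genes compared 3 were called, all lower, with a median of -0.68. Dlx2 (mm9, chr2:71381465-71384811) read 56.3 FPKM in control upper, 14.7 in mutant upper, 34.7 in control lower and 2.66 in mutant lower (-1.87). Dlx1as, the transcript antisense to Dlx1, went from 98.9 to 5.52 FPKM (-3.94) and Dlx1 itself from 27.8 to 17.0 FPKM (-0.68). The protocol names no strand, so reads of Dlx1 (mm9, chr2:71367502-71372037) and Dlx1as (chr2:71368695-71375948) cannot be told apart where they overlap. Dlx3 (55.6 to 1.25 FPKM, -4.65) was high in control upper alone. It was nevertheless lower in the lower pair too (11.9 to 1.97 FPKM, -2.11) and in mutant upper against control lower (-2.51).

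Other homeobox, forkhead, T-box and Sox factors gave a few calls each way. Tbx15, a T-box factor of limb and craniofacial mesenchyme, had the highest difference of these factors, 1.70 FPKM in control upper against 17.9 in mutant upper (2.80), with 4.74 and 9.52 FPKM in the lower pair. Shox2, a homeobox gene of the palate and limb, went from 8.98 to 27.0 FPKM (1.49) and Foxd1 from 0.462 to 2.55 FPKM (1.28). Tbx2 was lower (22.7 to 6.56, -1.65), whereas its close relative Tbx3 read 14.5 and 28.6 FPKM (0.93). Sox8 was lower (2.58 to 0.606, -1.16), and Mkx and Sox13 were high in control upper alone. Tcfap2c, an AP-2 factor chosen after its values were seen, went from 33.4 to 4.65 FPKM in the upper pair (-2.60) and from 28.9 to 1.70 FPKM in the lower pair.

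In the matrix, most collagens were not called and a few genes stood far out. Of 24 collagen chains 2 were higher and 1 lower, with a median of 0.01, and the fibrillar chain Col1a1 read 144 and 204 FPKM (0.50) and Col3a1 134 and 140. Col8a1, a short-chain collagen, had the largest difference among genes called higher that are not small RNAs, with 3.53 FPKM in control upper, 48.9 in mutant upper, 5.98 in control lower and 41.5 in mutant lower (3.46). Col12a1, which decorates collagen fibrils, read 12, 73.3, 19.7 and 56.1 FPKM (2.51). Col13a1, a transmembrane collagen, was lower (2.90 to 0.247, -1.65). Lox, the enzyme that crosslinks collagen and elastin, was higher (2.05 to 18.4, 2.67) and its relative Loxl1 lower (9.91 to 4.33, -1.03), of 19 processing genes. P4ha3 was high in control upper alone.

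Glycoproteins and proteoglycans showed the same mixture. Efemp1, a fibulin (3.83 to 17.4 FPKM, 1.93), and Npnt, an integrin ligand (7.44 to 19.3, 1.26), were higher and Emilin2 lower (7.22 to 2.33, -1.30), of 33 glycoproteins. Of 22 proteoglycans, Aspn (6.18 to 17.4, 1.35), Ogn (3.39 to 9.46, 1.25) and the link protein Hapln1 (1.30 to 3.93, 1.10) were higher. Hapln1 is also a cartilage marker, and the summed cartilage markers given above were higher in the mutant, whose part in this value was not tested. Aspn and Ogn, small leucine-rich proteoglycans, were at least 1 above all other libraries in the mutant upper library. Prelp (16.4 to 3.96, -1.81), of the same leucine-rich family, and Sdc4, a syndecan (26.5 to 9.39, -1.40), were lower. Postn read 155 and 229 FPKM (0.56) and Tnc, a glycoprotein of condensing dental mesenchyme, 20.4 and 17.8 FPKM (-0.19).

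Of 25 matrix proteases and their inhibitors 5 were called lower and 0 higher, against 3.43% and 1.26% of all genes, so that 0 higher is near the background. Mmp9, a gelatinase, read 68.6 FPKM in control upper, 1.52 in mutant upper, 66.4 in control lower and 0.60 in mutant lower (-4.79). Its inhibitor Timp1 went from 27.8 to 3.14 FPKM (-2.80), Timp3 from 43.1 to 12.4 (-1.72), the plasminogen activator Plat from 6.93 to 0.925 (-2.04) and Htra3 from 3.99 to 0.565 (-1.67). The other gelatinase, Mmp2 (41.4 and 47.4 FPKM), its activator Mmp14 (57.9 and 51.1) and Timp2 (97.4 and 66.7) were not called.

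Mineral and bone genes were sparse in this tissue and went both ways. Enpp1, which makes the mineralization inhibitor pyrophosphate, read 54.8 FPKM in control upper, 1.29 in mutant upper, 50.5 in control lower and 0.221 in mutant lower (-4.60). Ank, a pyrophosphate exporter, was lower as well (8.15 to 1.58, -1.83), and Alpl, the phosphatase that removes pyrophosphate, read 15.9 and 20.7 FPKM. Spp1, osteopontin, went from 5.70 to 0.0217 FPKM (-2.71), while Ibsp, bone sialoprotein (4.25 to 19.1, 1.93), and Ifitm5, an osteoblast gene (0.681 to 4.11, 1.6), were higher. The osteoblast factor Sp7 read 6.93 and 6.4 FPKM, and Dmp1 stood at 0.259 and 0.0147 FPKM.

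Genes better known from neurons made up the largest group of higher calls in any list. Of 34 synaptic and neural adhesion genes 8 were higher (against 1.26% of all genes) and 3 lower, with a median of 0.23. Lrrtm1, a postsynaptic leucine-rich repeat protein, read 2.71 FPKM in control upper, 38.8 in mutant upper, 8.06 in control lower and 75.1 in mutant lower (3.42). Ncam2 (0.527 to 8.60, 2.65), Nxph1, a neurexin ligand (0.436 to 7.99, 2.65), Cntn6 (2.30 to 18.0, 2.52) and Odz2, a teneurin (0.644 to 6.79, 2.25), were higher, as they were in the lower pair. Cbln2 (0.177 to 4.98, 2.35) was at least 1 above all other libraries in mutant upper, while its relative Cbln1 was lower (10.2 to 0.909, -2.55). Nptx2 was lower too, and Nptx1 (27.3 to 0.221, -4.53) was high in control upper alone, although it read 12.2 and 0.207 FPKM in the lower pair. Defining neuronal markers stayed near the floor in the upper pair, with Tubb3 at 0.741 and 0.290 FPKM, Stmn2 at 0.545 and 0.284 and Elavl3 at 0.0543 and 0.00887.

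Among cadherins 3 of 21 were higher and 0 lower, Pcdh10 (7.56 to 32.9 FPKM, 1.98), Pcdh9 (1.05 to 3.87, 1.25) and Cdh12 (1.37 to 3.74, 1.0), while Cdh11, the main mesenchymal cadherin, read 93.0 and 99.7 FPKM. Axon guidance genes were called 5 higher and 5 lower of 54. Sema3d, a secreted repellent (0.678 to 7.64, 2.37), Epha4 (2.11 to 8.55, 1.62) and Epha3 (19.1 to 52.8, 1.42) led the higher calls. Unc5b, a netrin receptor (20.5 to 3.38, -2.30), and Sema7a (6.86 to 0.603, -2.29) led the lower ones, which also held Plxna1, high in control upper alone. Of 8 neurotrophic genes Ntrk2, the Bdnf receptor, was higher (2.89 to 14.0, 1.95), and its relative Ntrk3 (4.72 to 0.640, -1.80) and Ret, the Gdnf receptor (2.06 to 0.00573, -1.6), were lower. Itga6, a laminin receptor subunit (10.4 to 3.99, -1.20), was the single call among 9 integrins.

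Proliferation genes were nearly level. Of 42 replication and mitosis genes 1 was called, E2f1 (23.8 to 8.52 FPKM, -1.38), with a median of -0.07, and Top2a read 41.2 and 45.6 FPKM. E2f1 read 12.2 and 8.83 FPKM in the lower pair, and the call was lost against control lower (-0.48). Ccnd2, a D cyclin, was among the most abundant lower calls, with 136 FPKM in control upper, 41.2 in mutant upper, 105 in control lower and 29.1 in mutant lower (-1.70). The CDK inhibitor Cdkn1a, p21, was lower as well (5.86 to 0.493, -2.20). Ccnd1 read 13 and 15.4 FPKM and Cdkn1c, p57, 67.5 and 77.1.

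Metallothioneins, small metal-binding proteins induced by zinc and stress, were lower, Mt1 from 21.0 to 2.26 FPKM (-2.76) and Mt2 from 14.2 to 0.890 (-3.01), of 17 genes with 3 called. Their reads can be split between close copies. Chaperones (1 of 31 called), glycolysis genes (1 of 27), cholesterol synthesis genes (1 of 23), respiratory subunits (1 of 51) and cytosolic ribosomal proteins (1 of 67) gave 0 or 1 call in either direction. Housekeeping genes gave 0 of 17, with Gapdh at 489 and 486 FPKM and Ppia at 1008 and 1006. The ribosomal exception, Rpl26 (5.70 to 25.4 FPKM, 1.98), was high in mutant upper alone and has many near-identical copies in the genome, so its value is uncertain.

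**Figure D3:**
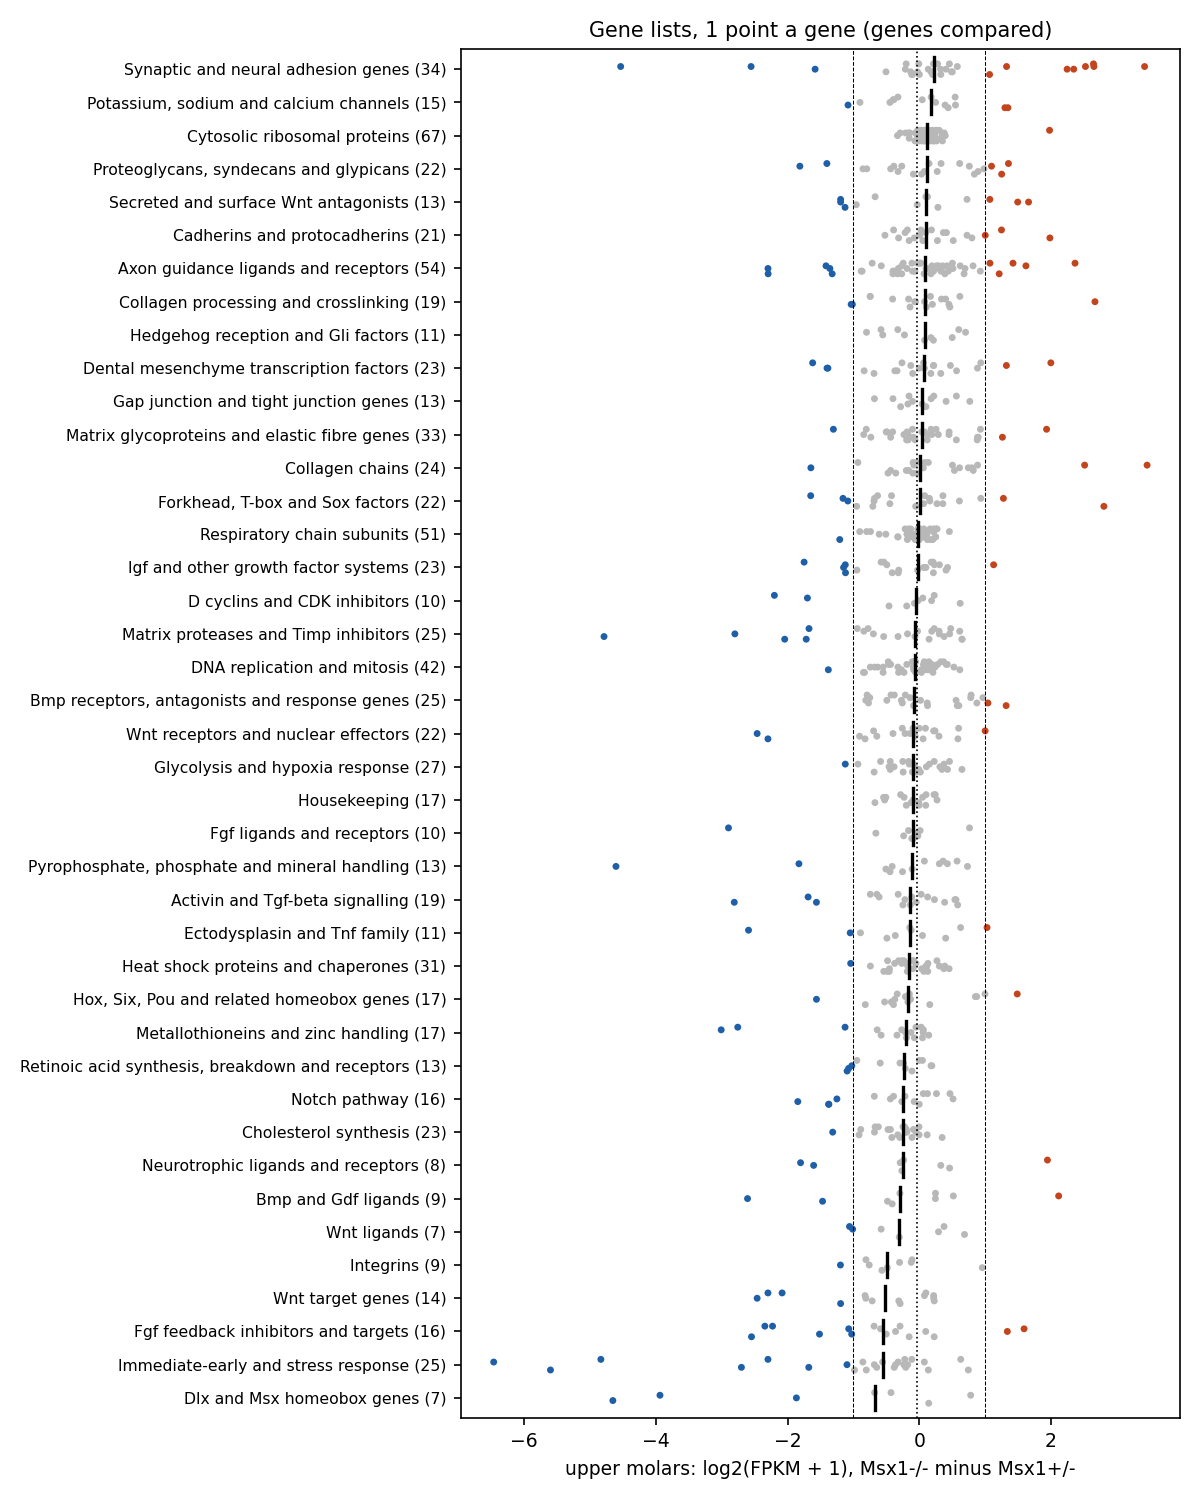
Every compared member of 41 gene lists by its upper molar difference, with list names and the number of genes compared on the left, black bars at list medians, a dotted line at the median of all genes and dashed lines at 1 and -1. Lists are ordered by median, from 0.23 for synaptic and neural adhesion genes to -0.68 for Dlx and Msx genes, and only the coloured points are called.

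The lower molars gave a second pair of libraries, of the same genotypes, that shares no library with the upper pair but may share embryos. On the same genes they showed 1006 lower calls (9.44% of 10659) and 95 higher (0.891%), around a median of -0.39. The mutant lower library lay at least 1 below each of the 3 others for 208 genes (1.95%). Of the 367 genes lower in upper molars 170 were lower there as well, which is 46.3% of the upper and 16.9% of the lower molar calls, and 324 had the same sign. With the lower pair centred at -0.39, a difference below 0 there was common among all genes compared. The share of all genes below 0 was not counted, so the 324 cannot be set against it. Of the 135 higher genes 46 were higher there, 34.1% of the upper and 48.4% of the lower molar calls, and 116 had the same sign. Opposite calls were made for 11 genes, 6 of them small RNAs. The difference between jaws was not tested, since each jaw has 1 library a genotype.

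For a few genes the mutant upper library was the high one. Leaving out small RNAs, it lay at least 1 above every other library for 14 genes. Acta2, smooth muscle actin, read 2.53 FPKM in control upper, 15.2 in mutant upper, 4.18 in control lower and 3.57 in mutant lower (2.20). Of the other smooth muscle genes Myl9 read 26.9 and 50.7 FPKM (0.89) and Synpo2 1.06 and 2.87, and neither was called. Myh11 stood at 0.159 and 0.325 FPKM, Cnn1 at 0.0526 and 0.0371, and Mylk was lower (11.3 to 3.16, -1.56). Of 10 compared pericyte and smooth muscle markers 5 lay above 0 and 5 below. Pericyte and smooth muscle markers summed to 301 FPKM in control upper and 338 in mutant upper, of which Tpm1 made up 211 and 233. Among the markers below 0, Rgs5 read 11.8 and 5.96 FPKM in the upper pair, Notch3 10.5 and 6.19 and Tagln 2.29 and 0.827. None of these was called. Ptx3, a secreted pentraxin, read 0.684, 15, 0.747 and 5.16 FPKM (3.25), Chodl 7.05, 27.0, 8.99 and 11.8 FPKM (1.80) and Scg2, a secretory granule protein, 0.780, 4.95, 0.0943 and 0.309 FPKM (1.74).

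**Figure D4:**
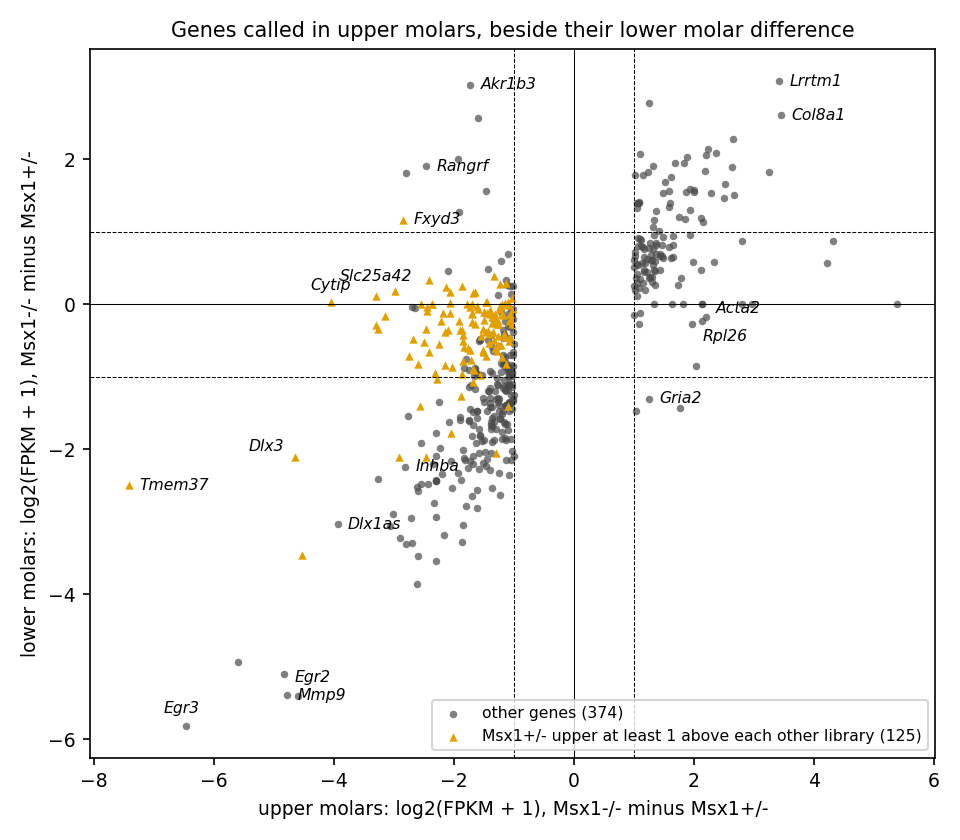
Mutant minus control differences of the 499 genes that were called in upper molars and comparable in lower molars, upper on the horizontal and lower on the vertical axis, with dashed lines at 1 and -1. Triangles are genes for which control upper lay at least 1 above each other library. A low control lower value chose the triangles, so their place on the vertical axis is no finding. Egr3 and Egr2 lie far down on both axes, and Lrrtm1 and Col8a1 far up.

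Called genes outside the lists included several abundant ones. Penk, which encodes the enkephalin precursor and was chosen after its values were seen, read 99.0 FPKM in control upper, 17.6 in mutant upper, 108 in control lower and 18.6 in mutant lower (-2.43). Emid2, a collagen-like matrix gene, read 140, 58.9, 136 and 44.4 FPKM (-1.23), and Tsc22d1, a leucine zipper gene induced by Tgf-beta, 123, 53.5, 146 and 65.0 FPKM (-1.19). Itm2a, a membrane protein of differentiating mesenchyme, read 24.0, 63.3, 47.7 and 66.0 FPKM, with a difference of 1.36 in upper and 0.46 in lower molars. C1qtnf3 read 8.27, 40.3, 13.2 and 30.1 FPKM (2.16). Vstm2a (0.36 to 5.69, 2.30) and Zcchc5 (0.898 to 7.77, 2.21) were among the highest differences, and Syn1, a synaptic vesicle gene, among the lowest (10.2 to 0.177, -3.26). LOC624853 (294 to 140, -1.07) and Atp5g2, an ATP synthase subunit (268 to 125, -1.09), were the most abundant lower calls, but their control lower values of 157 and 144 FPKM lay near the mutant upper ones. LOC624853 (mm9, chr9:40612686-40613283) overlaps Hspa8 (chr9:40609356-40613282), which was not called (396 to 318, -0.31). How reads were split between these 2 entries is not known, so the LOC624853 value is uncertain.

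Genes beside Msx1 on chromosome 5 were read as a group. Of 22 genes within 1 Mb of Msx1, 14 were compared and 1 was called, against 4.7% of all genes compared. Both counts of genes include Msx1 itself and its antisense transcript Msx1as. Stk32b, a kinase gene (mm9, chr5:37838064-38108392), read 9.35 FPKM in control upper, 1.53 in mutant upper, 9.03 in control lower and 0.737 in mutant lower (-2.03). Summing transcripts per gene mattered for few calls: of 2342 compared genes with at least 2 transcripts, 148 had transcripts called in opposite directions, and 7 of these were called as genes.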

How the data were processed

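RNA-seq of laser-captured molar mesenchyme at embryonic day 14 (RNeasy micro kit, NuGEN Ovation RNA-Seq v2 amplification, per the labels' protocols) gave 4 libraries, 1 for each genotype and jaw. Alignment used TopHat 1.4.1 with Bowtie 0.12.7 on mm9, per the submitters' processing notes. Per the file headers, each deposited table holds an FPKM value and a coverage signal for 28107 RefSeq transcript entries, in the layout of Cufflinks (version not given in the sources). Coverage summed over transcript length gave the depth. Read counts were not used here, so there is no count model and no counting interval, and pooled animals within 1 library give no spread.

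FPKM was summed per gene name. Genes whose upper libraries averaged 1 FPKM or more, with no failed estimate, were compared as log2(FPKM + 1), and a difference of at least 1 was called. As an alternative, limma 3.58.1 was fitted over all 4 libraries with genotype and jaw, adjusted by Benjamini-Hochberg. Other alternatives were pseudocounts, filters, rescalings, the size of a call, the most abundant transcript and the control lower library. Fold calls and limma were tested on simulated data. Positions are mm9 with 1 added to each start, and RefSeq promoters are GRCm38.p6. Python 3.11.15, pandas 2.3.3 and R 4.3.3 were used.

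Members and gene lists were chosen with earlier results of these data known. Named genes were Msx1, the 15 largest differences each way, the 12 most abundant called genes each way, the 8 each way farthest from the lower molar difference, and of each list up to 5 called and the 3 most abundant members. Called members beyond these 5 and all other genes were named after their values were seen. Small RNA names were not eligible. Not every gene the rule picks is described in the text.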

Additional observations from a re-analysis of the deposited data

Results flagged for a closer look

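Genes whose upper and lower molar differences pointed in opposite directions at a size of at least 1 each were picked out among those named, and there were 5 of 277. The difference between jaws was not tested for any of them. Akr1b3, an aldose reductase, differed by -1.72 in upper molars (12 FPKM in control, 2.92 in mutant) and by 3.02 in lower molars, where the control value was 0.000260 FPKM against 7.13 in the mutant. Rangrf, a Ran-binding protein, differed by -2.47 in upper molars (4.53 and 0.000237 FPKM) and by 1.90 in lower molars (0.000203 and 2.73 FPKM). For Rangrf a value near 0 in 1 library set the difference in each jaw. For Akr1b3 this held in lower molars only. No fold is given for these genes.

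Gdf7, a Bmp-family ligand, differed by -1.47 in upper molars (11.1 and 3.37 FPKM) and by 1.55 in lower molars (1.84 and 7.34 FPKM). Fxyd3, a regulator of the sodium pump, differed by -2.85 (20.1 and 1.93 FPKM) and by 1.16 (2.36 and 6.51 FPKM), and its control upper value lay above all other libraries. Gria2, a glutamate receptor subunit, was the reverse case, with 1.25 in upper molars (3.46 and 9.61 FPKM) and -1.30 in lower molars (2.42 and 0.388 FPKM).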

How the results depend on the processing

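The 135 higher and 367 lower calls of the upper molars became 30 and 82 at a difference of at least 2, 62 and 230 at a mean of at least 5 FPKM, and 45 and 145 with a pseudocount of 5. A pseudocount of 0.1 gave 271 higher. Against the control lower library 225 genes were lower, and 150 lay below both controls. Rescaling to a common upper quartile moved the median difference to 0.069. The limma genotype term over the 4 libraries, in which the jaws stand in as repeats and 1 residual degree of freedom is left, called 133 higher and 466 lower. These became 43 and 230 at a mean of at least 5 FPKM, 23 and 64 with no filter, 83 and 118 with a common total, 81 and 108 with a common upper quartile, and 159 lower with median of ratios. Genes called in both jaws numbered 46 higher and 170 lower. They became 22 and 107 at 5 FPKM, 86 and 289 with a pseudocount of 0.1 and 14 and 67 with a pseudocount of 5. The 46 became 80, 82 and 90 with median of ratios, a common total and a common upper quartile. Under the same rescalings the 170 fell to 124, 122 and 116. The causes were not tested.

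Against the control lower library 11 of 277 named genes changed sign: Adcy4 (0.025), Akr1b3 (1.97), Cytip (0.0078), Dkk1 (0.028), Gdf7 (0.62), Mamld1 (0.33), Mkx (0.17), P4ha3 (0.11), Rangrf (4.9e-05), Slc25a42 (0.24) and Sox13 (0.022). Another 38 lost the call. With a pseudocount of 5, 63 lost it, and with the 3 rescalings between 5 and 17 did. No paired analysis was possible because each group has 1 library and so no replicate numbers to block on, and the limma fit above holds jaw as its second term. Depth limits every value of a few FPKM, and no replicate shows its error.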

Other observations

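Genes outside the lists, chosen after their values were seen, added to the lower set in both jaws. Mical2, an actin-oxidizing enzyme that feeds Srf signalling, read 9.97 FPKM in control upper, 0.311 in mutant upper, 10.8 in control lower and 0.414 in mutant lower (-3.07). Errfi1, a feedback inhibitor of Egf receptors, went from 13.2 to 3.16 FPKM (-1.77) in the upper pair, and Bhlhe40, a repressor of the circadian and hypoxia responses, from 9.85 to 2.11 FPKM (-1.80). Lypd1, a GPI-anchored modulator of acetylcholine receptors, went from 7.78 to 0.778 FPKM (-2.30). The related matrix proteoglycans Spock1 (14.1 to 2.36 FPKM, -2.17) and Spock2 (18.1 to 4.90, -1.70) were both lower, and so were Crtac1, a cartilage matrix protein (7.56 to 0.695, -2.34), and Crym, a thyroid hormone-binding protein (10.9 to 1.41, -2.30). For each of these 8 genes the lower pair differed in the same direction by at least 1.

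Among imprinted genes Plagl1, a zinc finger factor, was higher in the mutant, with 9.35 FPKM in control upper, 27.9 in mutant upper, 8.76 in control lower and 17.6 in mutant lower (1.48). H19 (143 and 180 FPKM in the upper pair) and Igf2 (218 and 253) were not called. Ahr, the aryl hydrocarbon receptor, read 5.72 FPKM in control upper, 13.4 in mutant upper, 5.68 in control lower and 5.12 in mutant lower (1.10).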
